A study of Mus musculus with 3 samples.

Results

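Iron, ferritin and heme genes were examined in single splenocytes of 3 libraries: the ferritin light chain gene Ftl1 and its near-identical copy Ftl1-ps1, the ferritin heavy chain gene Fth1, the iron exporter Slc40a1 (ferroportin), heme oxygenase Hmox1, biliverdin reductase Blvrb, the transferrin receptor Tfrc and the endosomal metal transporter Slc11a1. These 8 genes, of 32285 in the matrices, were chosen by name, with measured levels in view: they were selected on the high level of Ftl1-ps1 in dendritic cells of B6.SLE123 mice. That level, and its counterpart in Ftl1, is therefore given as a description and supports nothing further. Each library was a separate group, so the differences below lack replicates and none was tested.

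All cells came from spleens of mice 12 to 14 weeks old, from which T cells had been depleted with CD3 microbeads, and each condition pooled 3 mice. The C57BL/6 control library combined sham-treated male mice with female mice, all C57BL/6. Cells of the C57BL/6 Ang II library came from C57BL/6 mice given angiotensin II (Ang II) from minipumps for 2 weeks from 10 weeks of age, at a labelled dose of 490 ug/kg/min, with placebo or 2-HOBA. The B6.SLE123 library held B6.SLE123 mice given placebo or no treatment, and others given 2-HOBA for 6 weeks from 7 weeks of age. 2-HOBA (2-hydroxybenzylamine) scavenges isolevuglandins, reactive products of lipid oxidation. B6.SLE123 is C57BL/6 carrying the lupus susceptibility segments Sle1, Sle2 and Sle3 on chromosomes 1, 4 and 7, which derive from a lupus-prone New Zealand strain. Slc40a1 and Slc11a1 lie on chromosome 1, and Ftl1 and Blvrb on chromosome 7; whether any of them falls inside a segment was not examined.

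Iron is carried in blood by transferrin and enters cells through the transferrin receptor. Inside the cell it is stored in ferritin, a shell built of heavy and light chains, and it leaves through ferroportin. In the spleen, red pulp macrophages engulf ageing red cells, heme oxygenase opens the heme ring to release its iron and biliverdin, and biliverdin reductases turn biliverdin into bilirubin. When iron is scarce, iron regulatory proteins bind hairpins in the messages called iron-responsive elements (IREs), which blocks translation when the hairpin lies in the 5′ UTR and protects the message when it lies in the 3′ UTR. SLC11A1 (NRAMP1) moves metal out of the phagosomes of macrophages and neutrophils.

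Ftl1 (ENSMUSG00000050708) lies on the minus strand of GRCm38 (mm10) at chr7:45457944-45459884, and Ftl1-ps1 (ENSMUSG00000062382) on the plus strand at chr13:74399694-74407346. The copy is named as a pseudogene, yet GENCODE vM21 annotates it as protein coding. Their transcripts Ftl1-201 (968 bases, 4 exons) and Ftl1-ps1-202 (938 bases, 1 exon) aligned over 910 bases, of which 906 were identical (99.6%). The 4 differences, counted from base 1 at the 5′ end of Ftl1-201 and written with the Ftl1 base first, were A196G in the 5′ UTR, G721A and G757A in the coding sequence and A817G in the 3′ UTR. None of the 183 protein positions differed. The longest stretch without a difference ran for 524 bases, from 197 to 720, and Ftl1-201 had 58 further bases at its 5′ end. Both coding differences fall in a stretch of 77 bases, shown because only such letters tell the copies apart within the aligned bases. Capitals mark the differing bases. Ftl1 is at chr7:45458135-45458211 on the minus strand and Ftl1-ps1 at chr13:74407051-74407127 on the plus strand.
Ftl1 coding stretch: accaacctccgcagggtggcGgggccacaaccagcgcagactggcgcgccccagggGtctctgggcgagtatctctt
Ftl1-ps1 coding stretch: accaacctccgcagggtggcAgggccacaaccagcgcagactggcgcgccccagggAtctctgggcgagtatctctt

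The 5′ UTR difference lies near the transcript start, the end that a 5′ library reads. It is shown in 30 bases, with the capital marking the differing base, at chr7:45459674-45459703 on the minus strand for Ftl1 and chr13:74406532-74406561 on the plus strand for Ftl1-ps1.
Ftl1 leader: tcctcgctgccttcAgctcctaggaccagt
Ftl1-ps1 leader: tcctcgctgccttcGgctcctaggaccagt

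A match to the IRE hairpin lay in a UTR of 5 of the 8 genes, searched as CNNNNNCAGTGN with the 5 bases before and after the loop able to pair (G with T allowed), on the sense strand only. Ftl1, Ftl1-ps1, Fth1 and Slc40a1 each held 1 in the 5′ UTR, and Tfrc held 4 in the 3′ UTR. Among all genes, 21 of 18491 5′ UTRs (0.114%) and 93 of 19095 3′ UTRs (0.487%) held a match. The sites are shown because they are the element the storage, export and uptake genes share; capitals mark the CAGTG of the loop. They lie at chr7:45459779-45459807 (minus strand, Ftl1), chr13:74406428-74406456 (plus, Ftl1-ps1), chr19:9982732-9982760 (plus, Fth1), chr1:45925465-45925493 (minus, Slc40a1) and chr16:32631219-32631247 (plus, the first of Tfrc).
Ftl1 IRE: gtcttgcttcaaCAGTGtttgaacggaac
Ftl1-ps1 IRE: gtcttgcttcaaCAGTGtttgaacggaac
Fth1 IRE: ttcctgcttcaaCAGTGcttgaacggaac
Slc40a1 IRE: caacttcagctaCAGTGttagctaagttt
Tfrc IRE: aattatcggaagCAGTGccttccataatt

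The hairpins of Ftl1 and Ftl1-ps1 were identical. The other members, Hmox1, Slc11a1 and Blvrb, held no match in their UTRs.

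The libraries held 18218, 16062 and 20691 barcodes and 44146350, 59043555 and 63516694 gene UMIs (unique molecular identifiers, 1 per captured RNA molecule) in the order control, Ang II and B6.SLE123, which is kept below. After filtering, 15710, 14027 and 16723 cells were kept, with a median of 1759, 2724 and 1888 UMIs, of which 13381, 11746 and 12976 were B cells. Pairs of libraries shared 305 to 351 kept barcodes. Each library was labelled with 6 hashtag antibodies, C0301 to C0306, which were not named for a condition, so their values are given only as lowest, median and highest. Xist was found in 0.132% to 0.385% of cells in 3 control hashtags and in 49.2% to 51.8% in the other 3, in no Ang II cell, and in 46.6% to 54.9% in the B6.SLE123 hashtags, so the libraries also differed in the share of cells with Xist. Cells were assigned to a class by detected marker genes, none of them a member. Levels are CPM, the UMIs of a gene scaled to a common class total, with exact Poisson 95% intervals; ratios are log2 of CPM, with exact conditional 95% intervals. All intervals cover counting error only. The B6.SLE123 and Ang II comparisons used the same control library.

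Ftl1-ps1 made up nearly as much of the ferritin light chain signal as Ftl1 in B6.SLE123 cells, and almost none of it in C57BL/6 cells. Of the UMIs of the pair, the copy held 1.69% (95% Clopper-Pearson interval 1.58% to 1.81%) in all kept control cells, 3.50% (3.35% to 3.64%) in Ang II cells and 45.8% (45.4% to 46.3%) in B6.SLE123 cells. Across hashtags the share ran from 1.50% through a median of 1.69% to 1.80% in the control library, from 3.20% through 3.50% to 3.66% in the Ang II library, and from 43.8% through 45.3% to 47.5% in the B6.SLE123 library. The hashtags of the 3 libraries therefore did not overlap. The Ang II library differed from the control library in this share although both came from C57BL/6 mice; strain differences cannot be told apart from library differences in the third library, and what set the step between the first 2 was not tested.

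**Figure D1:**
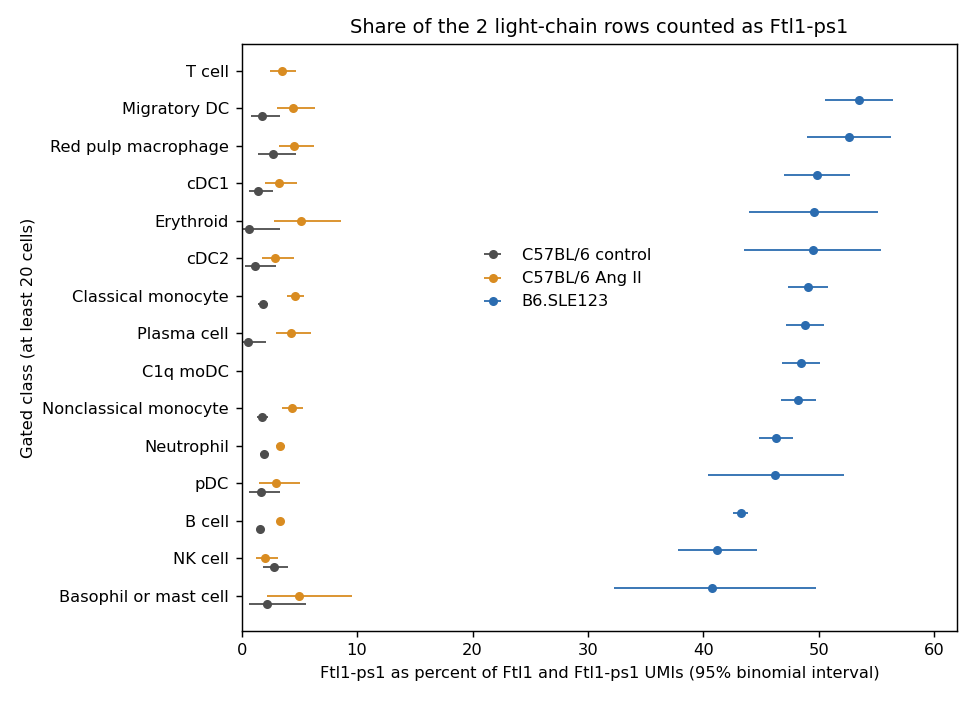
Percent of Ftl1 and Ftl1-ps1 UMIs assigned to Ftl1-ps1 (horizontal axis) in each gated cell class (rows) with at least 20 cells, with exact 95% intervals, for the 3 libraries by colour. B6.SLE123 classes sit between 40.8% and 53.5%, Ang II classes between 2.04% and 5.14% and control classes between 0.590% and 2.77%.

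The share was high in every B6.SLE123 class with at least 20 cells, not in dendritic cells alone. In B6.SLE123 cells it was lowest in basophils or mast cells (40.8%), had a median of 48.6% over 14 classes and was highest in migratory dendritic cells (53.5%). Control classes ran from 0.590% in plasma cells, with 2 UMIs of the copy, to 2.77% in natural killer cells, and Ang II classes from 2.04% in natural killer cells to 5.14% in erythroid cells. No class with at least 20 cells in either C57BL/6 library reached the B6.SLE123 range. In B cells, the class with the most UMIs, it was 1.59%, 3.36% and 43.2%.

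Conventional dendritic cells (cDC), the class that led to the choice of these genes, comprised 116, 137 and 262 cells. Flt3 and Itgax, which mark these cells, were detected. Flt3 is itself in the marker list of a subset, cDC2, so its detection is partly fixed by the gate. Ftl1-ps1 stood at 47.7, 105 and 1723 CPM (21, 70 and 1348 UMIs), and Ftl1 at 3194, 2872 and 1631 CPM. The copy was thus higher and Ftl1 lower in B6.SLE123 than in control cDC, with log2 ratios of 5.17 (4.56 to 5.87) and -0.97 (-1.08 to -0.86). Summed over the pair, the level was 3241, 2977 and 3354 CPM, and the ratio of B6.SLE123 to control was 0.05 (-0.04 to 0.14). Hbb-bs, a beta-globin gene, had 0, 1 and 1248 UMIs in cDC (1595 CPM in B6.SLE123), and its part in these values was not tested. Over cDC hashtags the copy ran from 8.95 through 26.4 to 122 CPM in the control library, from 88.3 through 99.7 to 125 in the Ang II library and from 1333 through 1655 to 2467 in B6.SLE123. B6.SLE123 hashtags all lay above the others, while those of the control and Ang II libraries overlapped. The pair's sum overlapped in all 3 libraries, at 2188 to 4727, 2295 to 3814 and 2625 to 4743 CPM. For Ang II against control the copy had a ratio of 1.14 (0.42 to 1.92), Ftl1 -0.15 (-0.25 to -0.05) and the sum -0.12 (-0.22 to -0.02). Leaving out the control hashtag C0306 turned the last 2 to 0.02 and 0.05. Among cDC subsets of B6.SLE123, the copy was at 1258 CPM in cDC1, 767 in cDC2 and 4926 in migratory dendritic cells, against 37.9, 23.3 and 157 CPM in control cells.

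**Figure D2:**
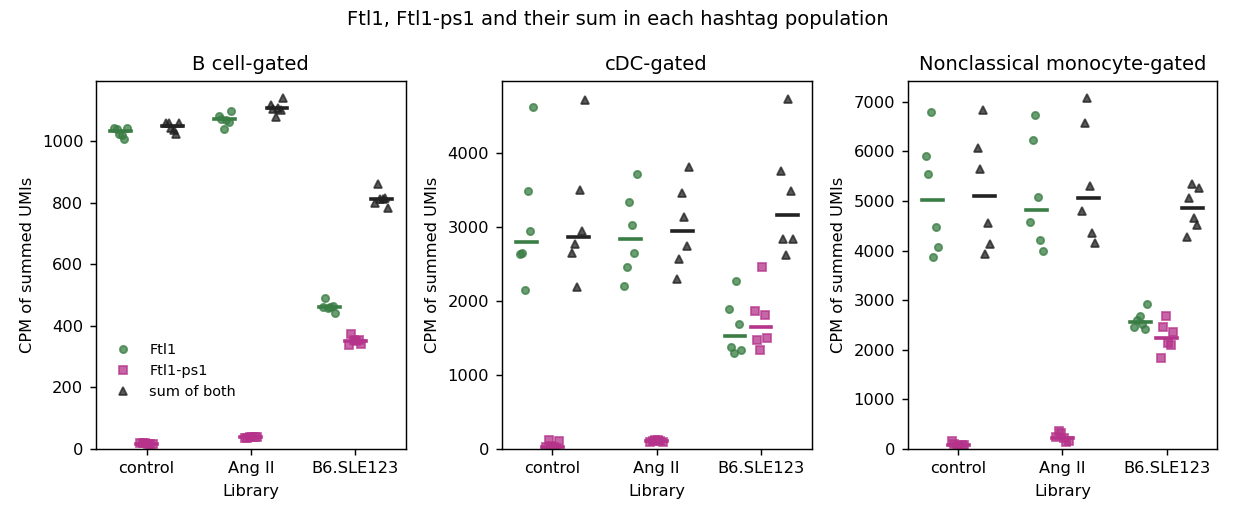
CPM of Ftl1, Ftl1-ps1 and their sum in the hashtag populations of each library, in B cells, conventional dendritic cells and nonclassical monocytes; each point is a hashtag and the bar is the median. In B cells the sum of B6.SLE123 hashtags (783 to 863 CPM) lies below the control hashtags (1024 to 1059 CPM), while in the other classes the ranges overlap.

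The sum of the pair was close to control in some classes and lower in others. Nonclassical monocytes had 5034, 5194 and 5058 CPM of the pair, with a B6.SLE123 ratio of 0.01 (-0.06 to 0.08), and natural killer cells 857, 852 and 853 CPM (-0.01, -0.14 to 0.13). S100a8, a neutrophil gene, stood at 2783, 14264 and 12225 CPM in nonclassical monocytes, lowest in the control library; its part in the values of this class here and below was not tested. On the CPM scale, Ftl1 was at 4947 and 2620 and Ftl1-ps1 at 87.4 and 2438 in control and B6.SLE123 nonclassical monocytes. B cells had 1048, 1111 and 813 CPM, a B6.SLE123 ratio of -0.37 (-0.39 to -0.34), with hashtags at 1024 to 1059, 1079 to 1140 and 783 to 863 CPM. The 3 ranges in B cells did not overlap, and B6.SLE123 was lowest. Plasma cells (-0.53, -0.69 to -0.36), plasmacytoid dendritic cells (-0.93, -1.15 to -0.71) and classical monocytes (-0.28, -0.34 to -0.21) were also below control. For Ang II the sum had ratios between -0.12 (cDC) and 0.13 (classical monocytes) in B cells, monocytes, cDC and natural killer cells. In classical monocytes the Ang II ratios of Ftl1 (0.09) and the sum (0.13) turned to -0.40 for both when the cell limits were read as UMIs, which left 13 of 105 Ang II cells; Ftl1-ps1 turned from 1.44 to -0.58.

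Red pulp macrophages, the cells that recycle red cell iron, had the highest level of both ferritin light chain genes in every library, although the interval of the copy overlapped with that of migratory dendritic cells in both C57BL/6 libraries. This class held only 27, 45 and 61 cells, with a median of 827, 754 and 881 UMIs, below the libraries' medians. Spic, which encodes the factor that red pulp macrophages depend on, stood at 762, 600 and 919 CPM, so this marker was present. The neutrophil gene S100a8 was also found in this class, at 1207, 251 and 2009.5 CPM. H2-Aa, an MHC class II gene, was at 4415, 1064 and 2072 CPM. Their part in the values of this class, here and below, was not tested. The pair's sum was 14072, 14853 and 11699 CPM. Migratory dendritic cells came next, at 8827, 10909 and 9216 CPM, and then nonclassical monocytes, apart from a class found almost only in B6.SLE123. That class, called C1q moDC for its marker list (monocyte-derived dendritic cells with C1q genes), held 0, 3 and 175 cells, 153 of them in hashtag C0303. In its B6.SLE123 cells S100a8 stood at 4537 CPM and H2-Aa at 1040 CPM, against 12651 CPM of H2-Aa in B6.SLE123 cDC. Flt3 had 1 UMI, and Itgax, which is in the marker list, was at 510 CPM. Whether these cells are dendritic cells was not tested. The C1q moDC had 8396 CPM of the pair, between migratory dendritic cells and nonclassical monocytes.

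Fth1 (ENSMUSG00000024661, chr19:9980598-9985098, plus strand), which encodes the chain that oxidizes iron as it enters the shell, followed another order of classes. Red pulp macrophages were highest again, at 11658, 12184 and 15297 CPM. Plasmacytoid dendritic cells came next in the C57BL/6 libraries, at 8808 and 7795 CPM, and had 8699 CPM in B6.SLE123. In B6.SLE123 the C1q moDC, at 15031 CPM, could not be told from red pulp macrophages within the counting intervals. Both marker lists hold C1qa, C1qb and C1qc, so these classes are partly alike by construction. The light and heavy chains thus ranked plasmacytoid dendritic cells differently: their pair sum, at 2509, 2436 and 1315 CPM, was below that of classical monocytes in each library.

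Fth1 was higher in B6.SLE123 than in control nonclassical monocytes, at 5798 against 3616 CPM (0.68, 0.61 to 0.76). Its hashtags ran from 2800 through 3466 to 4049 CPM in the control library and from 3926 through 5236 to 6430 CPM in B6.SLE123, a narrow overlap. It was also higher in cDC1 (3380 against 2167 CPM; 0.64, 0.49 to 0.79), red pulp macrophages (0.39, 0.22 to 0.57) and natural killer cells (0.29, 0.18 to 0.40). In B cells Fth1 was at 2888, 2757 and 2752 CPM, with hashtags at 2485 to 3194, 2551 to 2974 and 2449 to 3001 CPM. These ranges overlapped almost fully, and the B6.SLE123 ratio of -0.07 turned to 0.07 against the 3 control hashtags with Xist. The control hashtags nearly without Xist, C0301 to C0303, were at 3128, 3194 and 3142 CPM, above every Ang II hashtag. Ang II cells had no Xist, so their overlap with control came from the control hashtags with Xist. No Ang II ratio against C0301 to C0303 is given. The Ang II ratio in nonclassical monocytes was -0.33 (-0.44 to -0.22), the opposite direction to B6.SLE123. The difference between the 2 ratios was not tested.

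**Figure D3:**
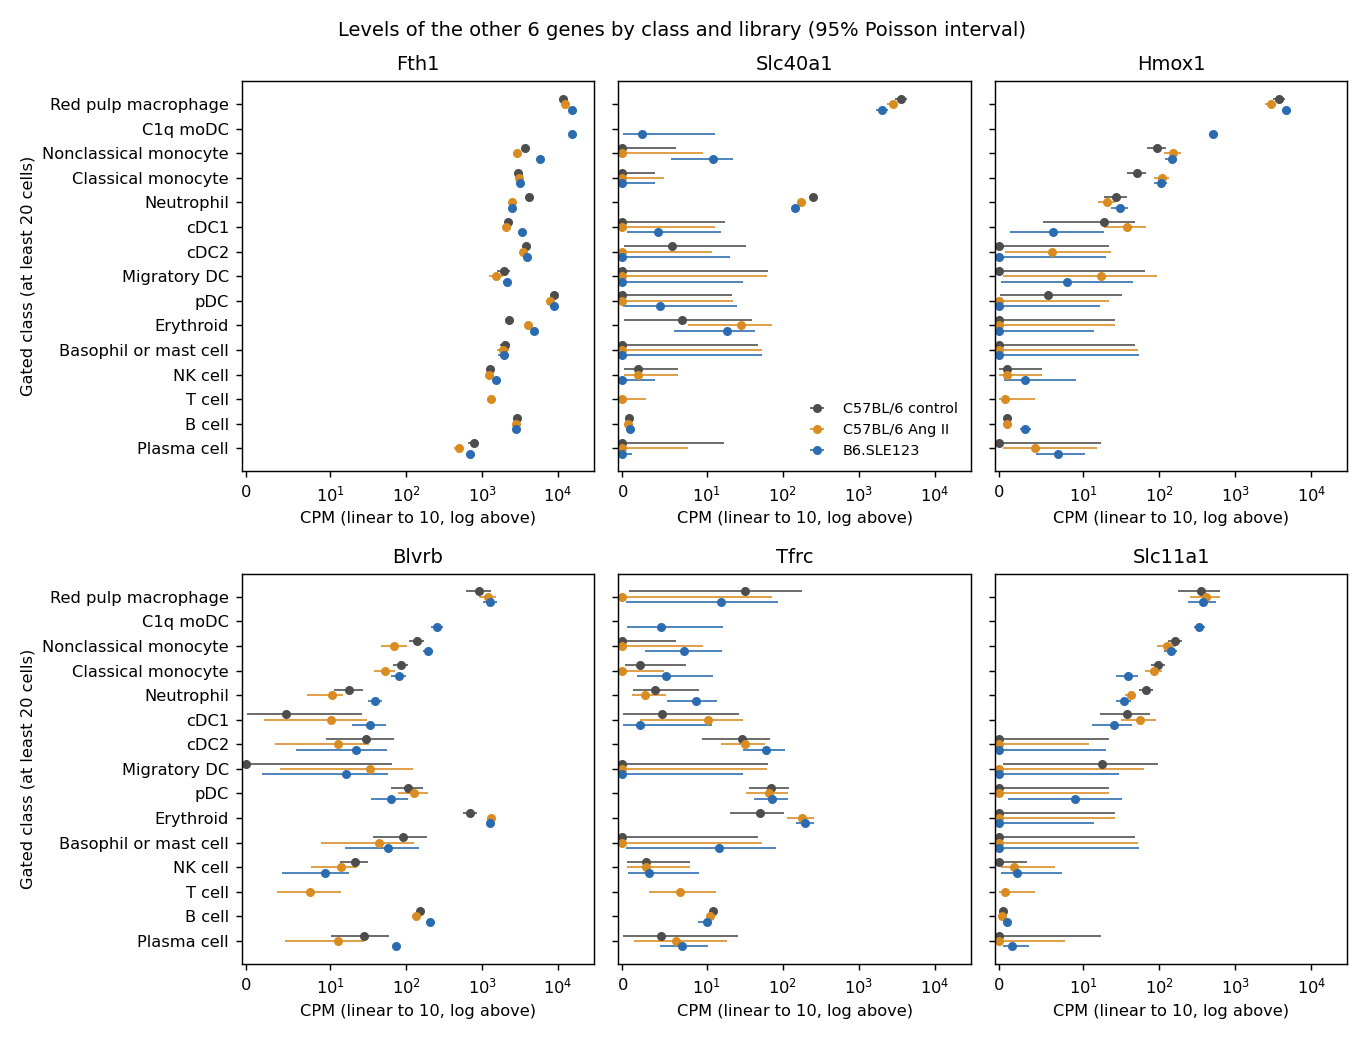
CPM, on an axis that is linear to 10 and logarithmic above, of the 6 members other than Ftl1 and Ftl1-ps1 (panels) in the gated classes with at least 20 cells for the 3 libraries by colour, with exact Poisson 95% intervals. Red pulp macrophages stand highest for Slc40a1 and Hmox1 in all 3 libraries, and neutrophils are the second class for Slc40a1.

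Slc40a1 (ENSMUSG00000025993, chr1:45908068-45926523, minus strand), the only known cellular iron exporter, was found mainly in red pulp macrophages and neutrophils. Among the other gated classes with at least 20 cells, the highest levels were 7.11, 28.3 and 18.6 CPM in erythroid cells, from 1, 4 and 5 UMIs, and 12.1 CPM in B6.SLE123 nonclassical monocytes, from 10 UMIs. Red pulp macrophages had 3621, 2785 and 2041 CPM (114, 144 and 131 UMIs), and 70.4%, 77.8% and 77.0% of the cells had a UMI. Its hashtags ran from 1820 through 3107 to 7984 CPM in the control library, from 1746 through 2599 to 3653 in the Ang II library and from 743 through 2223 to 3659 in B6.SLE123, where C0301 held no red pulp macrophage. All 3 ranges overlapped. The highest control value, in C0303, came from 1 cell with 8 UMIs. A single control hashtag, C0305, at 4662 CPM, held 11 of the 27 cells and 69 of the 114 UMIs. B6.SLE123 stood at -0.83 (-1.20 to -0.45) relative to control and Ang II at -0.38 (-0.74 to -0.01). Without C0305 the ratios were -0.40 and 0.05, so the lower Ang II level rested on it.

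Haemoglobin UMIs differed along with the library in these macrophages: Hbb-bs had 0, 1334 and 740 UMIs in them. With haemoglobin, ribosomal, mitochondrial and antigen receptor segment genes left out of the total, the Slc40a1 ratios were -0.81 for B6.SLE123 and -0.29 for Ang II.

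Neutrophils were the second class for Slc40a1, at 250, 176 and 147 CPM (321, 536 and 321 UMIs) in 643, 703 and 713 cells. A UMI was found in 35.9%, 44.4% and 32.0% of neutrophils, at median depths of 1144, 2001 and 1390 UMIs, and in 0.120%, 0.187% and 0.170% of B cells, at 1766, 2734 and 1899 UMIs. Thinned to 500 UMIs a cell, the shares were 18.2%, 12.8% and 13.2% in neutrophils and 0.0448%, 0.0596% and 0.0462% in B cells. The neutrophil share was thus far above the B cell share at equal depth, and the order of the libraries changed with thinning. The 10 neutrophils with the most Slc40a1 held 9.97%, 9.33% and 10.9% of its UMIs, so the signal was spread over many cells. Red pulp macrophage markers were at or near 0 in the neutrophils with Slc40a1: C1qa had 0, 2 and 1 UMIs, Cd5l 0, 1 and 0, and Spic 0, 0 and 2, in 231, 312 and 228 cells.

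Within neutrophils, the iron genes split with the granule genes Ngp and Camp, which immature neutrophils express. This division was made after the values were seen, and both genes are in the neutrophil marker list. Cells with no UMI of either numbered 518, 331 and 319, with median depths of 1038, 1613 and 772 UMIs, and cells with both numbered 112, 270 and 345, with 5434, 7590 and 4195 UMIs. The pair's sum was 6800, 6977 and 6949 CPM in cells with neither and 1113, 1300 and 1113 CPM in cells with both. The remaining 13, 102 and 49 cells had 1 of the genes, and their sum was 5535, 5824 and 4734 CPM. Fth1 was 7953, 7403 and 10557 against 976, 934 and 1162 CPM, Slc40a1 484, 457 and 511 against 61.2, 92.6 and 89.6 CPM, and Slc11a1 140, 155 and 138 against 9.96, 10.8 and 14.6 CPM. All 4 measures were higher in cells with neither gene than in cells with both in every library. The share of neutrophils with neither was largest in the control library, where 518 of 643 cells had none.

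**Figure D4:**
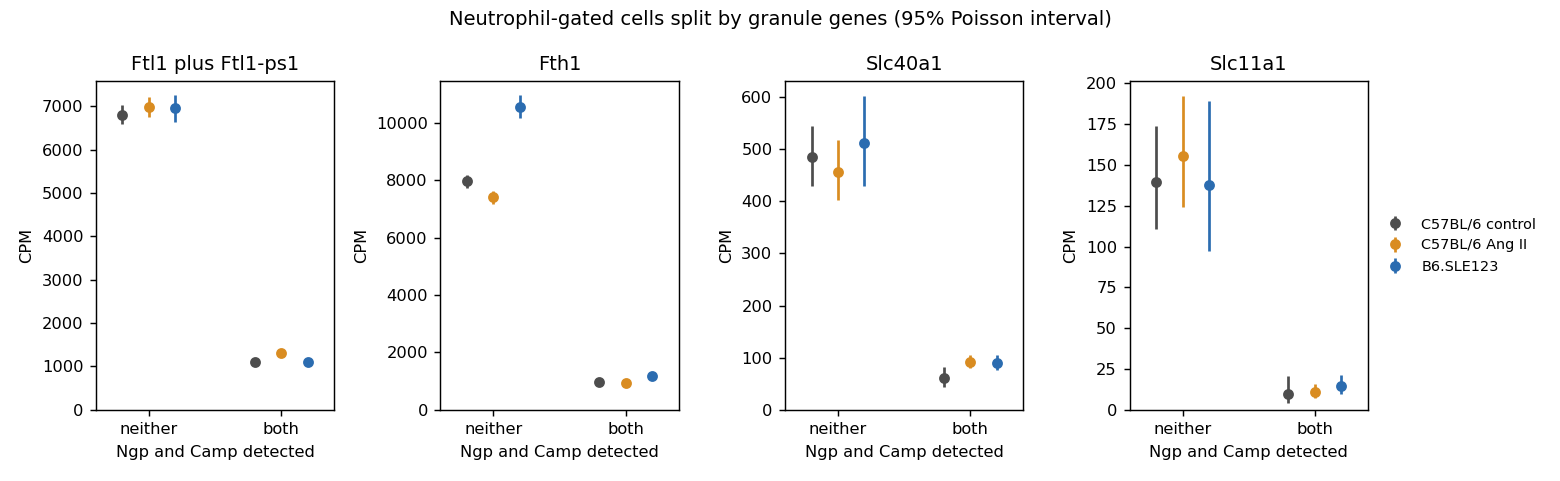
CPM of Ftl1 plus Ftl1-ps1, Fth1, Slc40a1 and Slc11a1 in neutrophils with neither and with both of Ngp and Camp, by library, with exact Poisson 95% intervals. In cells with neither gene the pair's sum is 6800, 6977 and 6949 CPM, in the order of the legend.

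Over all neutrophils, several members were lower than in the control library. The log2 ratios of Ang II and B6.SLE123 were -0.50 and -0.92 for the sum, -0.76 and -0.73 for Fth1, -0.50 and -0.77 for Slc40a1 and -0.70 and -1.0 for Slc11a1. With the limits read as UMIs, the Ang II ratios of the sum and Slc11a1 became 0.0097 and 0.10. Among cells with neither granule gene, the same ratios for B6.SLE123 were 0.03, 0.41, 0.08 and -0.02, and those of Ang II were 0.04, -0.10, -0.08 and 0.15. The lowest of these 8 ratios was -0.10, for Fth1 in Ang II cells. Blvrb in this subset was at 26.5, 12.7 and 152 CPM (15, 7 and 42 UMIs).

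Hmox1 (ENSMUSG00000005413, chr8:75093621-75100589, plus strand), which encodes the inducible heme oxygenase, was highest in red pulp macrophages at 3812, 2940 and 4673 CPM (120, 152 and 300 UMIs). Hashtags ran from 1100 to 5607, from 1419 to 6496 and from 2146 to 7290 CPM and overlapped throughout. B6.SLE123 stood at 0.29 (-0.02 to 0.61) relative to control, and Ang II at -0.37 (-0.73 to -0.02). Without control hashtag C0305 these became 1.08 and 0.41. The C1q moDC of B6.SLE123 were the next class, at 516 CPM.

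Hmox1 was higher in B6.SLE123 than in control monocytes, and the difference between Ang II and control monocytes depended on the cells summed. Classical monocytes had 50.7, 107 and 105 CPM (49, 80 and 101 UMIs), with ratios of 1.08 (0.55 to 1.63) in Ang II cells and 1.05 (0.55 to 1.58) in those of B6.SLE123. Hashtags ran from 24.9 through 50.3 to 89.9, from 34.1 through 76.9 to 162 and from 67.0 through 116 to 146 CPM, and overlapped. Nonclassical monocytes had 92.6, 150 and 145 CPM (54, 58 and 120 UMIs), with ratios of 0.69 (0.13 to 1.26) and 0.65 (0.17 to 1.14). Hashtags ran from 13.2 through 71.1 to 142, from 58.2 through 104 to 433 and from 20.8 through 148 to 161 CPM, and overlapped. The Ang II hashtag C0305, with 24 of the 58 UMIs in 15 of 100 cells, was far above the rest, and without it the ratio was 0.15. With the cell limits read as UMIs, the Ang II ratios became -0.77 in classical and -0.61 in nonclassical monocytes, from 13 and 54 Ang II cells. In B cells Hmox1 was at 1.001, 0.985 and 3.08 CPM (28, 36 and 95 UMIs), a B6.SLE123 ratio of 1.62 (1.0 to 2.28). S100a8 was also higher in B6.SLE123 than in control B cells, with a hashtag median of 121, 288 and 373 CPM; its part in the Hmox1 value was not tested.

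Blvrb (ENSMUSG00000040466, chr7:27447978-27466144, plus strand), a biliverdin reductase gene abundant in red cell precursors, was highest in red pulp macrophages (921, 1180 and 1277 CPM) and erythroid cells (697, 1325 and 1283 CPM). The intervals of the 2 classes overlapped in each library. In B cells it was at 153, 136 and 208 CPM, so that B6.SLE123 lay at 0.44 (0.39 to 0.50) and Ang II at -0.16 (-0.22 to -0.11) from control. B cell hashtags ran from 137 through 146 to 184, from 119 through 136 to 151 and from 145 through 200 to 316 CPM. B6.SLE123 hashtags reached higher but overlapped with the others. In nonclassical monocytes Blvrb was at 137, 69.8 and 196 CPM, -0.98 (-1.66 to -0.33) in Ang II and 0.51 (0.12 to 0.92) in B6.SLE123 cells relative to control; the difference between them was not tested. Without control hashtag C0305 these were -0.55 and 0.93. In B6.SLE123, hashtag C0303 held 200 of the 441 cells and 100 of the 162 Blvrb UMIs, at 231 CPM. Hashtags ran from 76.1 through 101 to 213 CPM in the control library and from 113 through 164 to 231 in B6.SLE123, and overlapped.

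Slc11a1 (ENSMUSG00000026177, chr1:74375195-74386062, plus strand) was found mainly in phagocytes: red pulp macrophages had 349, 406 and 374 CPM, nonclassical monocytes 163, 127 and 141, classical monocytes 96.2, 84.6 and 38.5 and neutrophils 67.6, 41.8 and 33.8. Apart from red pulp macrophages, with 11, 21 and 24 UMIs, each of these rested on at least 37 UMIs. cDC1 had 37.9, 54.9 and 25.4 CPM from 8, 16 and 12 UMIs, above neutrophils in the Ang II library, with overlapping intervals. It was lower in B6.SLE123 than in control classical monocytes, with a ratio of -1.32 (-1.91 to -0.76) and hashtags from 30.0 through 98.7 to 162 CPM in the control library and from 24.3 through 34.5 to 73.5 CPM in B6.SLE123, which overlapped. In nonclassical monocytes the ratio was -0.21 (-0.61 to 0.20). C1q moDC had 337 CPM.

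Tfrc (ENSMUSG00000022797, chr16:32608920-32632794, plus strand), the receptor for transferrin-bound iron, was low in every class and highest in erythroid and plasmacytoid dendritic cells. Erythroid cells had 49.8, 177 and 198 CPM from 7, 25 and 53 UMIs in 23, 32 and 51 cells, a B6.SLE123 ratio of 1.99 (0.85 to 3.37) that depended on which of these cells were summed, as given next. Plasmacytoid dendritic cells had 70.2, 65.5 and 72.0 CPM from 12, 11 and 16 UMIs. In B cells it was at 12.1, 10.97 and 10.02 CPM, with B cell hashtags from 9.40 to 15.04, from 7.51 to 11.8 and from 7.98 to 11.4 CPM, which overlapped.

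Summed over all erythroid cells, Fth1 and Blvrb were higher in both other libraries than in control spleens, but for Ang II this did not hold among cells with or without a hashtag. Fth1 was at 2241, 3968 and 4780 CPM, a ratio of 0.82 (0.62 to 1.03) in Ang II cells and 1.09 (0.91 to 1.28) in B6.SLE123 cells, and the Blvrb ratios were 0.93 (0.57 to 1.29) and 0.88 (0.55 to 1.22). Most Ang II erythroid cells, 30 of 32, carried no hashtag, against 6 of 23 and 22 of 51. Cells without a hashtag had far more Hbb-bs in each library, at 21712, 30905 and 37068 CPM, than cells with one, at 8.34, 0 and 12596 CPM. The 17 control and 2 Ang II cells with a hashtag held 1 and 0 Hbb-bs UMIs, and 0 and 1 Tfrc UMIs. They carry the class name from its marker list, and whether they are erythroid cells was not tested.

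In erythroid cells without a hashtag, Fth1 was at 6785, 4292 and 7039 CPM (140, 553 and 653 UMIs), Blvrb at 1745, 1420 and 2005 CPM (36, 183 and 186 UMIs) and Tfrc at 339, 186 and 302 CPM (7, 24 and 28 UMIs). The control level there was above that of Ang II for each of them, with overlapping intervals for Blvrb and Tfrc, and the ratios of Ang II were -0.66 for Fth1 and -0.30 for Blvrb. Those of B6.SLE123 were 0.05, 0.20 and, for Tfrc, -0.17. In cells with a hashtag, Fth1 was at 1459, 569 and 3585 CPM and Blvrb at 517, 325 and 901 CPM, where Ang II had 2 cells with 7 and 4 UMIs of these genes. The B6.SLE123 ratios in these cells were 1.30 and 0.80. Thus the higher B6.SLE123 level of Fth1 was seen among cells with a hashtag and hardly among those without. Of those 29 B6.SLE123 cells with a hashtag, C0303 held 16, and 487 of the 629 Fth1 UMIs, at 4376 CPM. Hashtags ran from 1319 through 1467 to 2127 CPM of Fth1 in the control library and from 0 through 2159 to 4376 in B6.SLE123, and overlapped. With the limits read as UMIs, which left 5 control cells, the Ang II ratios of Fth1, Blvrb and Ftl1 became -0.68, -0.69 and -0.50, and the B6.SLE123 ratio of Blvrb -0.31.

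**Figure D5:**
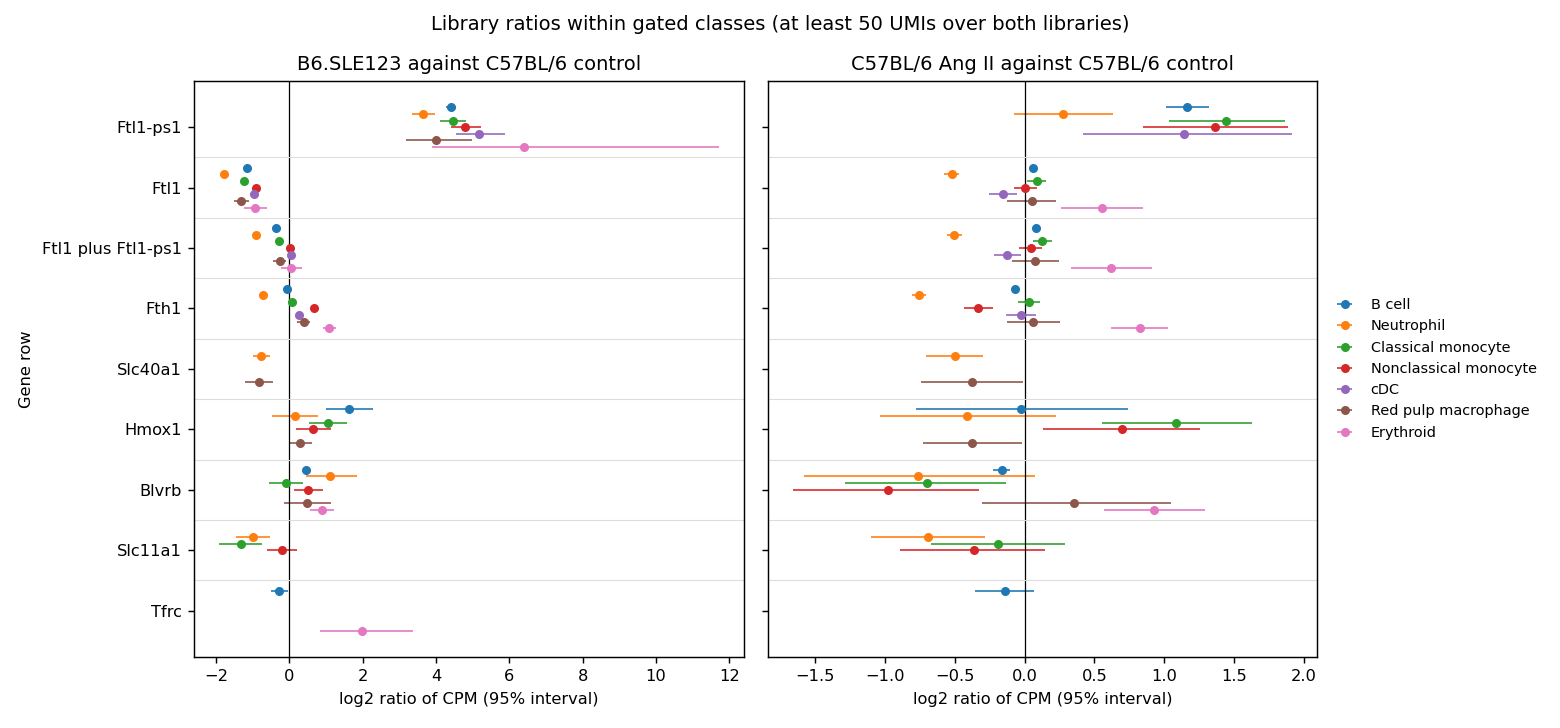
log2 ratio of CPM to the control library for each member and the pair's sum (rows) in 7 gated classes (colours), with exact conditional 95% intervals, for B6.SLE123 (left) and Ang II (right); a point is drawn only with at least 50 UMIs over both libraries, and the panels have different scales. Ftl1-ps1 in B6.SLE123 ranges from 3.65 in neutrophils to 6.40 in erythroid cells, the latter against 1 control UMI and with an interval of 3.90 to 11.71.

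Counted by a 2-fold difference among genes with at least 50 UMIs over both libraries, the members counted were mostly Ftl1-ps1 and Ftl1, whose levels guided the choice. In B cells of B6.SLE123 2 of 6 members passing that minimum, Ftl1-ps1 and Hmox1, were higher and 1, Ftl1, lower, where 6.87% of all genes passing it differed 2-fold. In neutrophils 2 of 7 were higher (Ftl1-ps1, Blvrb) and 1 lower (Ftl1), against 11.5% of genes. The median ratio of the members with enough UMIs was 0.19 in B cells and -0.73 in neutrophils, beside -0.05 and -0.04 for all genes passing the minimum. It was -0.01 in classical monocytes, 0.58 in nonclassical monocytes, 0.27 in cDC, 0.34 in red pulp macrophages and 1.09 in erythroid cells. These medians and the counts in this paragraph include Ftl1-ps1 and Ftl1, so they are a description and support nothing further. In classical monocytes 2 of 6 were higher (Ftl1-ps1, Hmox1) and 2 lower (Ftl1, Slc11a1), against 5.27%. Ftl1-ps1 alone differed in nonclassical monocytes (1 of 6 members, 4.09% of genes) and cDC (1 of 3, 4.05%). Ftl1-ps1 was higher and Ftl1 lower in red pulp macrophages (of 6 members, 10.1% of genes), and Ftl1-ps1, Fth1 and Tfrc were higher in erythroid cells (of 5, 9.97%). In the Ang II library Ftl1-ps1 was the only member past 2-fold in B cells (1 of 6; 1.57% of genes), nonclassical monocytes (1 of 6; 2.22%) and cDC (1 of 3; 3.17%). Ftl1-ps1 and Hmox1 passed it in classical monocytes (2 of 6; 1.5%), and no member did in neutrophils (of 7; 4.03%), red pulp macrophages (of 5; 6.28%) or erythroid cells (of 3; 13.6%). Hashtag populations of B cells did not overlap between B6.SLE123 and control for Ftl1-ps1 and Ftl1, 2 of 6 members, and for 19.3% of genes, and between Ang II and control for Ftl1-ps1, 1 of 6, and for 12.6%.

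Among 46 further iron and heme genes, the shares that differed 2-fold in B6.SLE123 exceeded those of all genes given above in several classes. These were B cells, both kinds of monocytes, cDC and erythroid cells, each from 2 to 5 genes. In nonclassical monocytes all 3 were Ltf, Lcn2 and Hp, and in B cells 3 of 4 were these genes. Ltf and Lcn2 are neutrophil granule genes. S100a8 stood at 2783 CPM in control and 12225 CPM in B6.SLE123 nonclassical monocytes, and its part in these shares was not tested. The shares were not tested. In B6.SLE123 B cells 34 had enough UMIs, 4 were higher and none lower, with a median log2 ratio of 0.08 against -0.05 for all genes. Alad, the second enzyme of heme synthesis, on chromosome 4, was at 26.0 CPM in control and 90.5 CPM in B6.SLE123 B cells (1.80, 1.68 to 1.92), with hashtags at 21.98 to 28.1, 22.2 to 25.5 and 77.2 to 101 CPM. B6.SLE123 hashtags lay apart from the other libraries, which overlapped. The others, the neutrophil granule genes Lcn2 (siderocalin) and Ltf (lactoferrin) and the haemoglobin-binding Hp, were higher by 1.24, 1.63 and 1.01, and S100a8, given above, was also higher. In Ang II B cells Ltf alone of 32 passed 2-fold (1.02). Ltf (2.18 and 2.11) and Lcn2 (2.02 and 1.99) were also higher in nonclassical monocytes of B6.SLE123 and of Ang II mice, where 15 and 14 genes had enough UMIs; Hp (1.16) was higher in the former and Glrx5 lower in the latter (-1.15). In classical monocytes 3 of 20 were higher in B6.SLE123, Lcn2 (2.19) and the first enzyme of heme synthesis Alas1 (1.46) among them, and 1 was lower, while 1 of 18 was higher in Ang II, the heme transporter Slc48a1 (1.27). In neutrophils 1 of 18 was higher in B6.SLE123, Glrx5 (1.04), and 0 of 20 differed 2-fold in Ang II. In erythroid cells 5 of 9 (B6.SLE123) and 4 of 7 (Ang II) were higher and none lower, beside 9.97% and 13.6% of all genes. Higher in both were the heme enzymes Alad (2.71 and 1.02) and Cpox (1.70 and 1.79) and the iron-sulphur protein Glrx5 (1.17 and 1.20). These sums also mix cells with and without a hashtag, and those with one were nearly without Hbb-bs in the C57BL/6 libraries. Flvcr1, described as a heme exporter, was lower in B6.SLE123 neutrophils (-1.99, 15 against 35 UMIs) and classical monocytes (-1.51, 14 against 40 UMIs). In cDC 2 of 9 genes were higher in B6.SLE123, Alad (1.92) and the ferritin receptor Ncoa4 (1.07, 0.08 to 2.18), and 0 of 6 in Ang II.

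Over 41 library-by-class sums, which share libraries and depth, the level of Hmox1 most resembled that of Slc11a1 (Pearson r of log2 CPM with a pseudocount of 1, 0.87), and Slc11a1 that of Ifi204 (0.90) and Fcgr4 (0.87). Slc40a1 was most like Ptgs1 (0.84) and Arsg (0.83), Blvrb like Abcb4 (0.78), Ftl1 like Lima1 (0.77), Tfrc like Rangrf (0.75) and Fth1 like Scand1 (0.74). Ftl1-ps1 had the weakest nearest gene, Ifitm2 (0.66). Ftl1 was not among the 3 genes nearest to Ftl1-ps1.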

How the data were processed

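Splenocytes of 3 libraries were measured by 10x Genomics 5′ single-cell RNA sequencing. The deposited values are raw counts of UMIs per gene and hashtag, written by the authors' run of Cell Ranger 6.0.0 (per the file headers) on build mm10 (per the submitters' processing notes). Members and gene lists were chosen with earlier results of these data known. Ftl1 and Ftl1-ps1 are near identical, so reads can be divided between them or lost to both; the reference is C57BL/6, and whether strain sequence changed the assignment was not tested.

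Barcodes with over 200 and under 3500 genes and under 15% mitochondrial UMIs were kept, and those above an Otsu threshold for several hashtags (13.4%, 11.4% and 17.9% of barcodes, control first and B6.SLE123 last) were removed. Doublets within a hashtag could not be seen. A cell went to the class with the highest share of its marker list detected, with at least 2 genes and no tie; cells that also had at least 3 B cell genes and at least 3 of their own class were left out. UMIs were summed by class. Ratios needed at least 50 UMIs over both libraries. Named genes were all members and, of 46 further genes, those 2-fold different, a few of which are not reported here; the neutrophil split and the genes shown beside members (Hbb-bs, S100a8, Spic and others) were chosen after seeing the data. There was no test. Positions and transcripts are those of GENCODE vM21 (32158 of 32285 genes matched; 8 of 8 members). Treatment with 2-HOBA was not analysed, since hashtags were not named for conditions. Python 3.11.15, numpy 2.4.6, scipy 1.17.1, pandas 2.3.3 and Biopython 1.88 were used, and the ratio intervals were tested on simulated data.

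Alternatives were the cell limits read as UMIs, no doublet removal, a gate of 3 genes, CPM without abundant gene families, a zero median ratio, a mean over cells, leaving out each hashtag, control hashtags with Xist, and, chosen after seeing the data, neutrophils with neither Ngp nor Camp and erythroid cells with or without a hashtag.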

Additional observations from a re-analysis of the deposited data

How the results depend on the processing

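Of 90 log2 ratios and shares, 66 had an interval that excluded 0. Of 795 values under alternatives, 621 stayed within the counting interval of the reported value and 134 moved outside it with the same sign. Another 6 moved outside an interval that held 0 and had the other sign. The remaining 34, in 22 results whose interval excluded 0, turned. The causes were not tested. No paired analysis was possible because hashtags carried no condition and each group was 1 library. Depth limits Tfrc, Slc11a1 and every value in red pulp macrophages and erythroid cells.

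In cDC of B6.SLE123 against control, Ftl1 (-0.97) was -0.77 with the limits read as UMIs and -1.16 against control hashtags with Xist, and -1.11 to -0.80 when a hashtag was left out. The pair's sum (0.05) was 0.27, -0.14 and -0.095 to 0.22 in the same order, and Ftl1-ps1 (5.17) ran from 4.82 to 5.66 when a hashtag was left out. The Ftl1-ps1 share of the pair in B6.SLE123 (45.8%) was 45.3% with the limits read as UMIs and 45.1% to 46.1% without a hashtag. Slc40a1 in red pulp macrophages ran from -0.98 to -0.40 (B6.SLE123) and from -0.48 to 0.046 (Ang II) without a hashtag.

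Limits read as UMIs turned these ratios: for Ang II, in classical monocytes Ftl1 (-0.40), Ftl1-ps1 (-0.58), the sum (-0.40) and Hmox1 (-0.77); in nonclassical monocytes Hmox1 (-0.61); in cDC Ftl1 (0.50) and the sum (0.55); in erythroid cells Ftl1 (-0.50), Fth1 (-0.68), Blvrb (-0.69) and the sum (-0.36); in neutrophils Slc11a1 (0.10) and the sum (0.0097); for B6.SLE123, Blvrb in erythroid cells (-0.31). A mean over cells turned Ftl1 (0.043) and the sum (0.085) in Ang II cDC. Without a hashtag these ran from -0.23 to 0.017 and from -0.20 to 0.051, and Hmox1 in Ang II red pulp macrophages from -0.65 to 0.41. Control hashtags with Xist turned Fth1 in B6.SLE123 B cells (0.069). Neutrophils with neither Ngp nor Camp, an alternative chosen after seeing the data, turned Fth1 (0.41), Slc40a1 (0.078) and the sum (0.031) for B6.SLE123 and Ftl1 (0.015), Slc11a1 (0.15) and the sum (0.037) for Ang II. In erythroid cells, split after seeing the data, those without a hashtag turned Ftl1 (-0.15), Fth1 (-0.66), Blvrb (-0.30) and the sum (-0.076) for Ang II and Tfrc (-0.17) for B6.SLE123, and those with one turned Fth1 (-1.36) and Blvrb (-0.67) for Ang II.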
